A study of Homo sapiens with 2 samples.

Results

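The BH3-only apoptosis initiators are BCL2L11 (Bim), BBC3 (PUMA), BID, BMF, PMAIP1 (Noxa), BAD, HRK and BIK, 8 genes taken by name from the 37122 genes of the count table. All 8 were read in both libraries, with 126 to 15494 reads over the 2 libraries together. RNA-seq compared Ramos, a human B-cell line from a Burkitt's lymphoma (BL), with its derivative Ramos640, which had been selected by culture in rising concentrations of rituximab with normal human serum as the source of complement. Ramos640 was kept resistant to complement-dependent cytotoxicity (CDC) by exposure every 21 days to rituximab, at a concentration labelled 640 mg/mL (μg/mL in the published methods), with 20% normal human serum. Ramos received neither. The published methods give a serum-supplemented medium for the purchased Ramos line and name no other for Ramos640. Whether Ramos640 is a clone, or how long before harvest it last met rituximab, is not given in the sources used here.

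RNA of 3 passages was pooled for each line before the library was made, so there was 1 library per line and no difference has a replicate check. No test was therefore made, no p-value is given, and every interval is a 95% interval that covers counting error only. The libraries held 38030090 reads (Ramos) and 30871826 reads (Ramos640), and 10 of 10 B cell markers were read in both, from 1904 to 96811 reads. Of 19 markers of T and NK, myeloid, epithelial, erythroid and endothelial cells, none had over 31 reads in either library, and 14 (Ramos) and 15 (Ramos640) had at most 3. The highest of these, CD3E, had 1 read in Ramos and 31 in Ramos640. MS4A1, which encodes the rituximab target CD20, had 9654 and 1904 reads. In RNA from a whole culture, fewer cells that express a gene and less RNA of it per cell cannot be told apart.

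BH3-only proteins start the mitochondrial pathway of apoptosis. Each carries a short helix, the BH3 domain, that fits into the groove of the BCL2 family guardians (Bcl-2, Bcl-xL, Mcl-1 and relatives), and some can also switch on the effectors BAX and BAK directly, which then open the outer mitochondrial membrane. In B cells, Bim limits survival after antigen receptor signals, and PUMA and Noxa are classical targets of p53.

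A stretch that these genes have in common was read from the reference transcript of each (GENCODE v44lift37, GRCh37). The sequences below are the 30 coding bases around the core of the BH3 domain, shown because all of these genes have this core. Capitals mark the leucine codon and the pair of codons that ends in aspartate.
BBC3: cagCTGcggcggatgGCGGACgacctcaac
BCL2L11: gagTTGcggcgtattGGAGACgagtttaac
BID: cacCTCgcccaggtcGGGGACagcatggac
BMF: aagCTTcagtgcattGCAGACcagttccac
PMAIP1: caaCTCaggagatttGGAGACaaactgaac
BAD: gagCTCcggaggatgAGTGACgagtttgtg
HRK: cggCTCaaggcgctaGGCGACgagctgcac
BIK: cggCTGgcctgcatcGGGGACgagatggac

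The search read codons for leucine, any 2 residues, a small or large aliphatic residue, methionine or phenylalanine, then glycine, alanine or serine, aspartate, any 1 residue and a hydrophobic residue. It was written to cover the known BH3 cores, so its matches describe the family and are no finding. All 8 genes held exactly 1 match, as against 5.26% of 20149 reference coding sequences with at least 1 match. Of the 9 guardians and effectors, 6 held a match. Base by base, pairs of the 8 stretches shared 11 to 21 of 30 bases, with a median of 16.5. Each stretch lay within a single exon. That of BBC3 was in exon 3 of 4 on chr19:47729839-47729868 (minus strand), that of BID in exon 4 of 6 on chr22:18222184-18222213 (minus strand) and that of BCL2L11 in exon 3 of 4 on chr2:111907677-111907706 (plus strand). In PMAIP1, the shortest protein at 54 codons, it was in exon 2 of 2 on chr18:57569902-57569931 (plus strand). The others were on chr15:40396399-40396428 (BMF, exon 4 of 5), chr11:64039097-64039126 (BAD, exon 3 of 4) and chr12:117318978-117319007 (HRK, exon 1 of 2), all on the minus strand, and on chr22:43523719-43523748 (BIK, exon 3 of 5, plus strand).

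The BH3-only genes did not move as a group between the lines. BCL2L11 and BMF were higher in the Ramos640 library past the study's fold criterion of 1.5. BBC3 was lower past the reciprocal criterion, and the other 5 stayed between these limits. The study also set a limit on the false discovery rate (FDR), which was not applied here because no test was made. Of the 18778 genes with at least 10 reads, 14.6% passed the criterion for higher and 17.3% that for lower. On total counts these shares were 12.5% and 20.4%, and the same number of BH3-only genes, 2 and 1, passed. The median over the BH3-only genes was 0.27 on the log2 scale, beside -0.015 over all genes tested, and the values ranged from -1.21 to 0.80. The counting interval lay above 0 for 4 of the 8 (29.6% of all genes tested) and below 0 for 2 (31.6%). Together the 8 genes took 0.0393% of all reads in Ramos and 0.0392% in Ramos640.

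**Figure D1:**
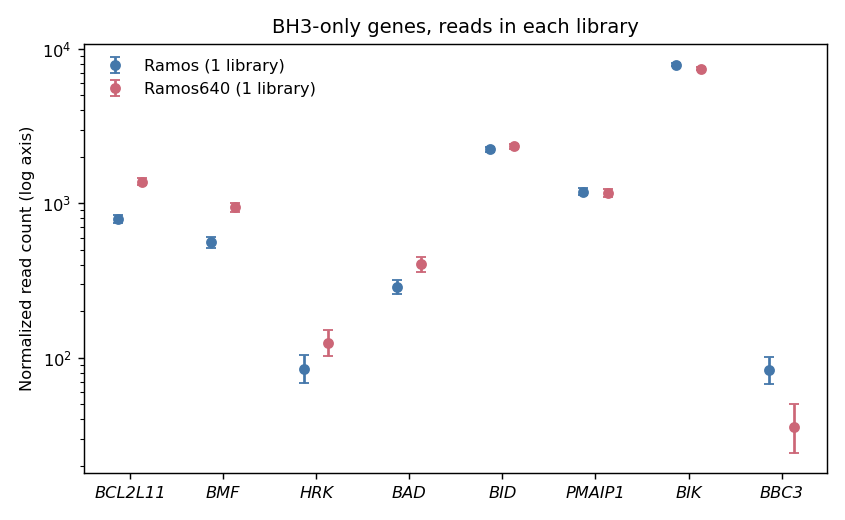
Normalized read counts (log axis) of the 8 BH3-only genes, ordered by fold change, with 1 point per library and bars for the exact Poisson 95% interval of the count. The Ramos640 point lies above the Ramos point with separate bars for BCL2L11, BMF and BAD, and below it for BBC3 and, by a small step, BIK.

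Among the BH3-only proteins that can activate BAX and BAK directly, the 3 genes went 3 ways. BCL2L11, which encodes Bim, had 904 reads in Ramos and 1211 in Ramos640, although the Ramos640 library was the smaller. After scaling these were 792 and 1382 normalized counts, a 1.74-fold higher level in Ramos640 (log2 fold change 0.80, interval 0.68 to 0.93). This was the largest positive value of the 8 and stood at the 90.5th percentile of all genes tested. BCL2L11 lies on chromosome 2 of GRCh37 from 111876955 to 111926021. The long noncoding gene MIR4435-2HG is annotated across it on the other strand and shares 727 of its 6742 exonic bases. The row matched to MIR4435-2HG by gene identifier held 5 and 4 reads. Without strand, the reads over the shared bases cannot be told apart.

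BBC3, which encodes PUMA, had 95 reads in Ramos and 31 in Ramos640, or 83.2 and 35.4 normalized counts. It was 2.32-fold lower in Ramos640, with a log2 fold change of -1.21 and an interval from -1.87 to -0.64. The whole interval lay past the fold criterion, and the value stood at the 6.48th percentile of all genes tested. BBC3 lies on chromosome 19 from 47724079 to 47736023 and overlaps only MIR3191, a microRNA gene of 80 bases with 1 and 0 reads. Among the 5451 genes with 100 reads or more but under 1000, the class of BBC3, HRK and BAD, 19.6% passed the criterion for lower and 14.6% that for higher.

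BID, which caspase-8 cleaves to its active form downstream of death receptors, had 2551 and 2044 reads, or 2235 and 2333 normalized counts. Its log2 fold change of 0.061 had an interval from -0.023 to 0.15. No difference in BID was detectable at this depth. At this scaling, counting error alone left room for up to a 1.11-fold higher level, and on total counts the log2 fold change was -0.019. BID lies on chromosome 22 from 18216904 to 18257536.

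Of the BH3-only proteins that act mainly by occupying guardians, BMF differed most. BMF, a partner of the dynein light chain DYNLL2, had 637 reads in Ramos and 824 in Ramos640, or 558 and 940 normalized counts. This was a 1.68-fold higher level in Ramos640 (log2 fold change 0.75, interval 0.60 to 0.90). The lower end of the interval was just past the fold criterion, which is 0.58 on the log2 scale, but fell short of it on total counts (0.52) and with the GC trend removed (0.47). Of the 8226 genes with 1000 or more reads, the class of BCL2L11 and BMF, 6.87% passed the criterion for higher and 7.94% that for lower. BMF lies on chromosome 15 from 40380091 to 40401093. The antisense gene BMF-AS1 shares 461 of its 5447 exonic bases and matched no row of its own, so reads of both over these bases cannot be told apart without strand.

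HRK, which binds Bcl-xL and is best known from neurons, had 97 and 110 reads, or 85.0 and 126 normalized counts. Its log2 fold change of 0.56 fell just short of the criterion, and with so few reads the interval ran from 0.16 to 0.97. HRK lies on chromosome 12 from 117293949 to 117319246. BAD, which binds Bcl-2 and Bcl-xL and is held inactive by phosphorylation and 14-3-3 proteins, had 328 and 352 reads, or 287 and 402 normalized counts. Its RNA was 1.40-fold higher in Ramos640 (log2 fold change 0.48, interval 0.26 to 0.70). At the protein level the paper reported the other direction, with less Bad and more phosphorylated Bad in Ramos640 by immunoblotting. BAD lies on chromosome 11 from 64037302 to 64052176 and overlaps GPR137 on the other strand over 14643 bases, which include 404 of its 1708 exonic bases. GPR137 had 225 and 275 reads (log2 fold change 0.67), and without strand the reads over the shared bases cannot be told apart.

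PMAIP1, which encodes Noxa, the partner of Mcl-1 and of the BCL2A1 protein, had 1354 and 1021 reads, or 1186 and 1165 normalized counts. Its log2 fold change of -0.026 had an interval from -0.14 to 0.092. BIK, a BH3-only protein of the endoplasmic reticulum, had by far the most reads, 8981 and 6513, or 7870 and 7433 normalized counts. The depth of BIK made a small difference measurable, with a log2 fold change of -0.082 and an interval from -0.13 to -0.036. It was 1.06-fold lower in Ramos640. PMAIP1 lies on chromosome 18 from 57567228 to 57571537 and BIK on chromosome 22 from 43506756 to 43525718. At this scaling, the Noxa and BIK transcripts thus stood at nearly the same level in both libraries, while those of PUMA and Bim differed in opposite directions.

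**Figure D2:**
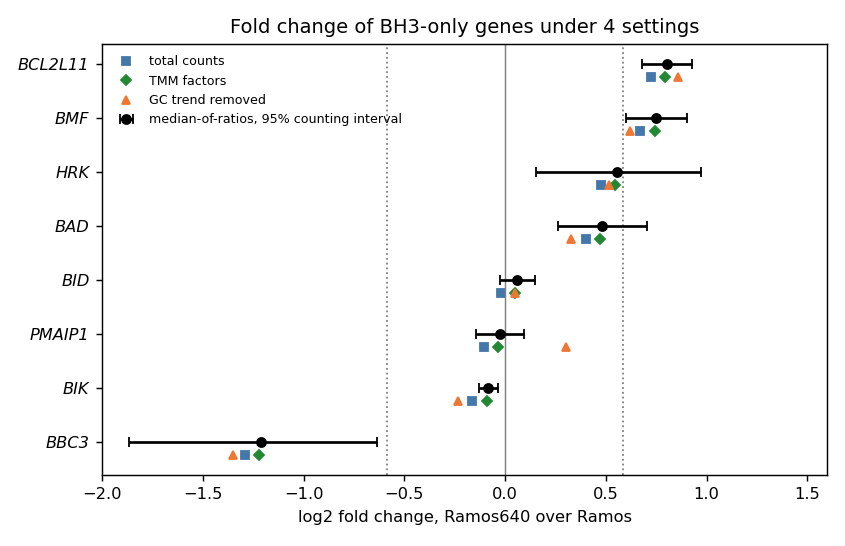
Log2 fold change of Ramos640 over Ramos for each BH3-only gene, with black points and 95% counting intervals from median-of-ratios scaling and coloured points for 3 other settings, and dotted lines at the fold criteria. BCL2L11 (0.80), BMF (0.75) and BBC3 (-1.21) lie outside the dotted lines under all 4 settings, and PMAIP1 moves from -0.026 to 0.30 when the trend over GC content is removed.

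Fold changes between these libraries went with the base composition of the transcript. Spearman's rho between the log2 fold change and the GC content of the reference transcript was 0.432 (10281 protein-coding genes of 100 reads or more, a description across genes that share both libraries). The 8 genes lie far apart on this scale, from PMAIP1 at 36.7% GC (4.83rd percentile) to BBC3 at 69.7% (99.8th percentile). The running median at the GC content of BBC3 was 0.14. Near this end of the scale it was taken over fewer genes, most of them less GC-rich than BBC3. BBC3 was thus low among genes whose median was above 0. For PMAIP1 the running median was -0.33, and with it removed the interval of PMAIP1 lay above 0, from 0.19 to 0.42. BCL2L11 (0.86) and BMF (0.62) stayed past the criterion after this step. The part of GC content in these values was not tested further.

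**Figure D3:**
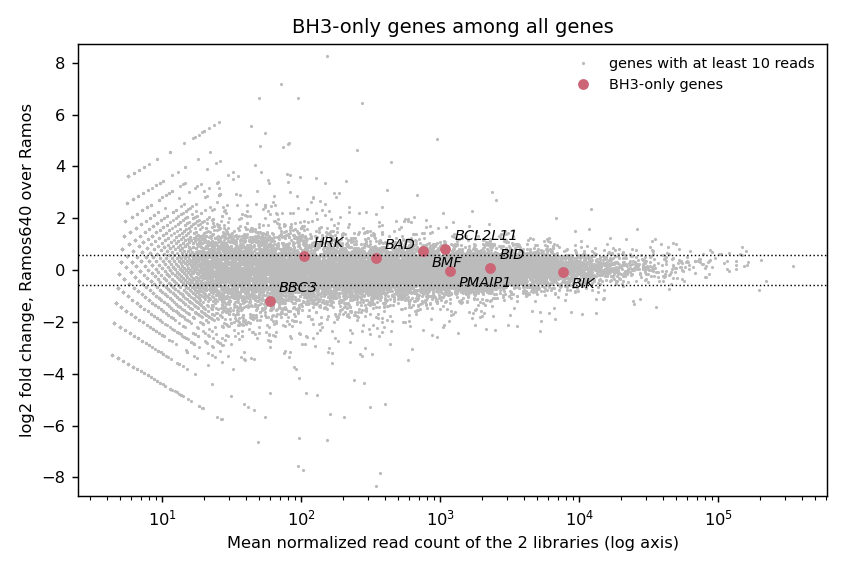
Log2 fold change against the mean normalized read count (log axis) for all genes with at least 10 reads (grey) and the 8 BH3-only genes (red), with dotted lines at the fold criteria. The 8 genes lie inside the cloud of other genes, and BBC3 has the fewest reads of them (126).

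The ratio of reads between a pair of these genes within a library does not depend on how the libraries are scaled. Of the 28 pairs, 21 had a change in this ratio whose interval excluded 1, without adjustment for the number of pairs. Pairs of other genes were not counted, and of all single genes tested 29.6% had a fold interval above 0 and 31.6% one below, so nothing particular to the BH3-only genes is read from this count. They included all 7 pairs with BBC3. For 1 BBC3 read there were 9.52 BCL2L11 reads in Ramos and 39.1 in Ramos640, a 4.11-fold change (interval 2.68 to 6.43). The ratio of HRK to BBC3 reads went from 1.02 to 3.55, a 3.48-fold change (2.08 to 5.87), so a pair of genes with nearly equal reads in Ramos no longer had them in Ramos640. BCL2L11 and BMF kept nearly the same ratio, 1.42 and 1.47, and the interval of its change ran from 0.90 to 1.19. The ratio of PMAIP1 to BIK reads was 0.151 and 0.157 (0.95 to 1.14). None of these ratios is corrected for the trend over GC content. With that trend removed, the log2 fold changes of PMAIP1 and BIK were 0.30 and -0.23, so this pair did not stay level. These paired intervals show which differences exceed counting error in these libraries, not how cultures vary.

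Levels of different genes were compared per length, as reads per kilobase of merged exons, scaled to the total reads of the library (RPKM). BIK led in both libraries with an RPKM of 248 in Ramos and 222 in Ramos640, which was 84.9% and 82.1% of the summed RPKM of the 8 genes. PMAIP1 (RPKM 16.3 and 15.1) and BID (RPKM 15.2 and 14.98) followed, and their intervals overlapped in both libraries, 15.4 to 17.2 and 14.6 to 15.8 in Ramos and 14.2 to 16.1 and 14.3 to 15.6 in Ramos640. BAD had an RPKM of 5.05 and 6.68, BCL2L11 3.53 and 5.82, and BMF 3.08 and 4.90. BBC3 and HRK were lowest, and their point values changed places. BBC3 had an RPKM of 0.784 (interval 0.635 to 0.959) in Ramos, above HRK at 0.372 (0.302 to 0.454). In Ramos640, BBC3 had an RPKM of 0.315 (0.214 to 0.448) and HRK 0.520 (0.427 to 0.627), with intervals that overlapped slightly.

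**Figure D4:**
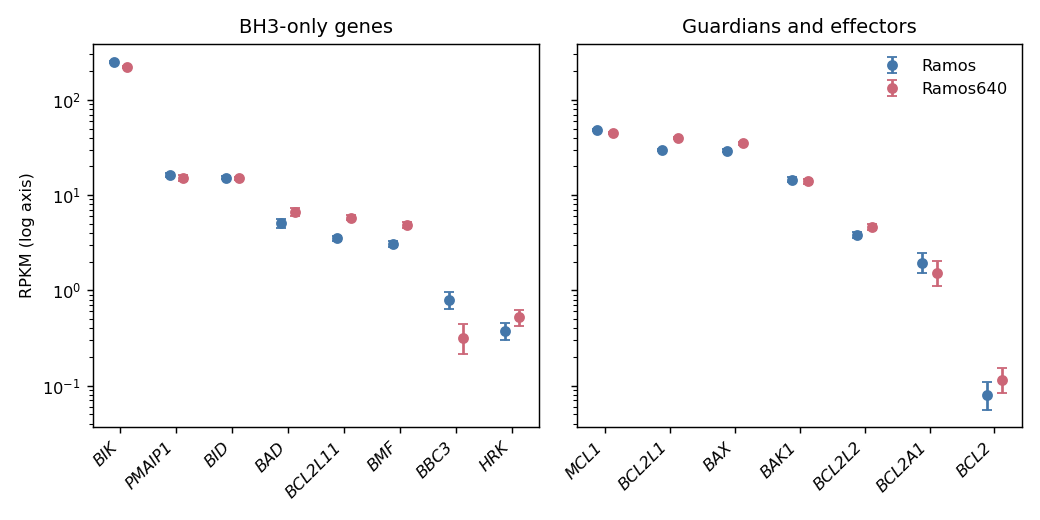
RPKM (log axis) of the BH3-only genes and of the guardians and effectors with over 3 reads, in Ramos (blue) and Ramos640 (red), with exact Poisson 95% intervals. BIK is above every guardian and effector in both libraries, and the BBC3 point passes from above HRK to below it, where their intervals overlap.

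The guardians and effectors are the proteins that BH3-only proteins bind. Of these 9 genes, 7 had at least 10 reads, with a median log2 fold change of 0.33 beside -0.015 over all genes tested. BCL2 alone passed the criterion for higher, which it did not on total counts, and no gene passed that for lower. Of all genes tested, 14.6% and 17.3% passed these criteria. BCL2 had 38 and 45 reads (log2 fold change 0.61, interval -0.030 to 1.29). Among the guardians, BCL2L1 (Bcl-xL) had 4739 and 5160 reads (0.50, interval 0.45 to 0.56) and BCL2L2 (Bcl-w) 708 and 690 (0.34, 0.19 to 0.50). MCL1, the guardian that Noxa binds, had 11431 and 8617 reads (-0.027, -0.067 to 0.014), and BCL2A1 had 74 and 47 (-0.27, -0.83 to 0.27). The effector BAX had 2887 and 2784 reads (0.33, 0.25 to 0.40) and BAK1 1221 and 957 (0.030, -0.094 to 0.15). BCL2L10 had no reads, and BOK had 0 and 1. The summed RPKM of the 6 guardians was 83.9 in Ramos and 90.9 in Ramos640, and that of the BH3-only genes was 293 and 270. Without BIK the BH3-only sum was 44.3 and 48.3, so whether this sum was higher or lower in Ramos640 turned on BIK.

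Of 15 transcription regulators of BH3-only genes, all with at least 10 reads, 2 (FOXO3 and MYC) passed the criterion for higher and 4 that for lower (5 on total counts), beside 14.6% and 17.3% of all genes tested, and 9 passed neither. The median log2 fold change was -0.15. FOXO3, an activator of BCL2L11 and BBC3 transcription, had 164 and 271 reads (1.10, interval 0.82 to 1.39). MYC, whose deregulation is the mark of BL, had 16186 and 21564 (0.79, 0.77 to 0.82). The related factors FOXO1, with 1917 and 811 reads (-0.86, -0.98 to -0.74), and FOXO4, with 673 and 313 (-0.72, -0.92 to -0.53), were lower in Ramos640. NR3C1, the glucocorticoid receptor, with 3320 and 1694 reads (-0.59), and JUN, with 33 and 15 (-0.72, interval -1.74 to 0.16), were the other genes past that limit.

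Outside BBC3 and PMAIP1, 22 target genes of p53 were read as a list, 21 of them with at least 10 reads. On the main scale 5 passed the criterion for higher and 3 that for lower, beside 14.6% and 17.3% of all genes tested. On total counts these were 3 and 5, beside 12.5% and 20.4%, so which side held more genes turned on the scaling. The main-scale shares were 6.87% and 7.94% of genes with 1000 or more reads. For genes with 100 to under 1000 reads they were 14.6% and 19.6%. Their median log2 fold change was 0.018 (-0.062 on total counts). DDB2, a DNA damage sensor, had 239 and 75 reads (-1.28, interval -1.69 to -0.91), and TP53I3, an oxidoreductase, had 252 and 83 (-1.21, -1.60 to -0.86). These values were close to that of BBC3. GADD45A, with 664 and 858 reads (0.75), and PLK3, with 136 and 187 (0.84), were higher in Ramos640. FAS, the death receptor (233 and 286 reads, 0.67), AEN, a nuclease (3246 and 3830 reads, 0.62), and CDKN1A, the cell cycle inhibitor p21 (21 and 25 reads, 0.61, interval -0.26 to 1.54), also passed the criterion for higher, and CCNG1, cyclin G1 (4008 and 1937 reads, -0.67), that for lower.

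Regulators that act on the BH3-only proteins or their RNA formed a list of 25 genes, all with at least 10 reads. Of these, 1 passed the criterion for higher and 3 (4 on total counts) that for lower (median -0.094), beside 14.6% and 17.3% of all genes tested. All but SFN and MAPK8 had 1000 or more reads, a class in which 6.87% and 7.94% passed. The gene past the criterion for higher was SFN (14-3-3 sigma), with 36 and 60 reads (1.09, interval 0.50 to 1.76). The 6 other 14-3-3 genes of the list had far more reads, at least 5724 in each library. Their log2 fold changes ran from -0.41 (YWHAZ, 10744 and 6225 reads) to 0.0075 (YWHAE), with intervals below 0 for 4 of the 6. With the GC trend removed, these values ran from -0.11 (YWHAZ) to 0.20 (YWHAB). CASP8, the protease that activates BID, had 798 reads in Ramos and 301 in Ramos640 (-1.02, interval -1.22 to -0.83), while BID itself did not differ detectably. PIM1 (0.55) and AKT2 (0.49), kinases that phosphorylate BAD, had intervals above 0. So did PIM2 (0.22) and, barely, AKT1 (0.065, interval 0.0021 to 0.13), while that of PIM3 lay below 0 (-0.16, interval -0.25 to -0.074). The sign of AKT1 turned on the processing, with -0.015 on total counts and -0.13 with the GC trend removed. Removing that trend also brought PIM1 to 0.37, AKT2 to 0.29, PIM2 to 0.086 and PIM3 to -0.32. MIR17HG, the host transcript of the miR-17 to miR-92a cluster, had 1547 and 696 reads (-0.77, -0.90 to -0.64), and MAPK8, the stress kinase JNK1, had 455 and 229 (-0.61, -0.84 to -0.38). Of 11 other genes whose proteins carry a BH3-like stretch, 10 had at least 10 reads, with 1 past the criterion for higher and 3 past that for lower (median -0.012), beside the same 14.6% and 17.3%. BNIP3L, a receptor for the removal of mitochondria, had 1530 and 480 reads (-1.29, -1.44 to -1.14), BNIP3, its close relative, had 1692 and 744 (-0.80), and ITM2B had 1476 and 575 (-0.98). SPNS1, with 176 and 383 reads (1.497), and BCL2L13, with 2942 and 2928 (0.37), had intervals above 0.

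BCL2L11 is a textbook target of the miR-17 to miR-92a cluster, so the mature microRNAs are shown with their seeds (bases 2 to 8) in capitals, from RefSeq (GRCh38.p14). They were chosen after the values were seen, and they were not measured here, since the count table holds the host transcript.
miR-17-5p: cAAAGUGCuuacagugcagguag
miR-20a-5p: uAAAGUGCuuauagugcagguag
miR-18a-5p: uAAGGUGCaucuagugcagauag
miR-19a-3p: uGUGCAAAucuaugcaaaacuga
miR-19b-3p: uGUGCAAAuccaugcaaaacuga
miR-92a-3p: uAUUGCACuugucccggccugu

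The 6 microRNAs share 4 seeds. Their complements on the RNA strand, GCACTTT (miR-17-5p and miR-20a-5p), GCACCTT (miR-18a-5p), TTTGCAC (miR-19a-3p and miR-19b-3p) and GTGCAAT (miR-92a-3p), were searched on the sense strand of the 3′ untranslated regions of the reference transcripts. BCL2L11 held 4 matches in 4213 bases, given here with the match in capitals.
BCL2L11, miR-17-5p and miR-20a-5p: gtctcctgactagaGCACTTTa
BCL2L11, first miR-92a-3p match: agccaaatgtctgtGTGCAATt
BCL2L11, miR-19a-3p and miR-19b-3p: tggcttacttgtgtTTTGCACt
BCL2L11, last miR-92a-3p match: ttgccactttacttGTGCAATa

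In the order given, they lie on chr2:111923793-111923814, chr2:111924489-111924510, chr2:111925886-111925907 and chr2:111925928-111925949 of GRCh37, plus strand, all in exon 4. Of 1791 untranslated regions of like length (0.8 times that of BCL2L11 to the reciprocal multiple), 79.7% held at least 1 match and 11.1% held 4 or more. HRK held 2 matches in 5379 bases, which is the median of 1227 untranslated regions of like length, and 59.1% of these held as many or more. BMF, whose log2 fold change was close to that of BCL2L11, held none in 3897 bases, and neither did BBC3, BID, PMAIP1, BAD or BIK. A match is a run of letters, and the part of these microRNAs in the values was not tested.

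The 8 genes lie on 7 chromosomes, with BID and BIK both on chromosome 22, so their neighbours were read as well, 5 protein-coding genes with at least 100 reads on each side. BBC3 was lower than all 10 of its neighbours, which ran from 0.012 to 1.15 with a median of 0.31. The nearest, SAE1 (15988 and 13978 reads, 0.19) and CCDC9 (350 and 356 reads, 0.40), start or end within 23.2 kb. BCL2L11 was higher than all 10 of its neighbours, which ran from -1.34 to 0.19 with a median of -0.47. BUB1 (-0.26) and ANAPC1 (0.10) were the nearest. BMF was higher than 9 of 10, with SRP14 (0.12) and BUB1B (-0.063) nearest and EIF2AK4 (0.83) above it. PMAIP1 (median of neighbours -0.24), BIK (-0.044) and HRK (-0.086) lay within the range of their neighbours. So did BID, which was below 9 of its 10 (median 0.24), and BAD, which was above 6 of 10 (median 0.32). The nearest genes were LMAN1 (0.016) and PIGN (-0.44) to PMAIP1, TTLL1 (0.042) and MCAT (0.81) to BIK, and RNFT2 (-0.086) and FBXW8 (0.62) to HRK. For BID they were BCL2L13 (0.37) and MICAL3 (0.11), and for BAD PLCB3 (-0.043) and GPR137 (0.67).

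**Figure D5:**
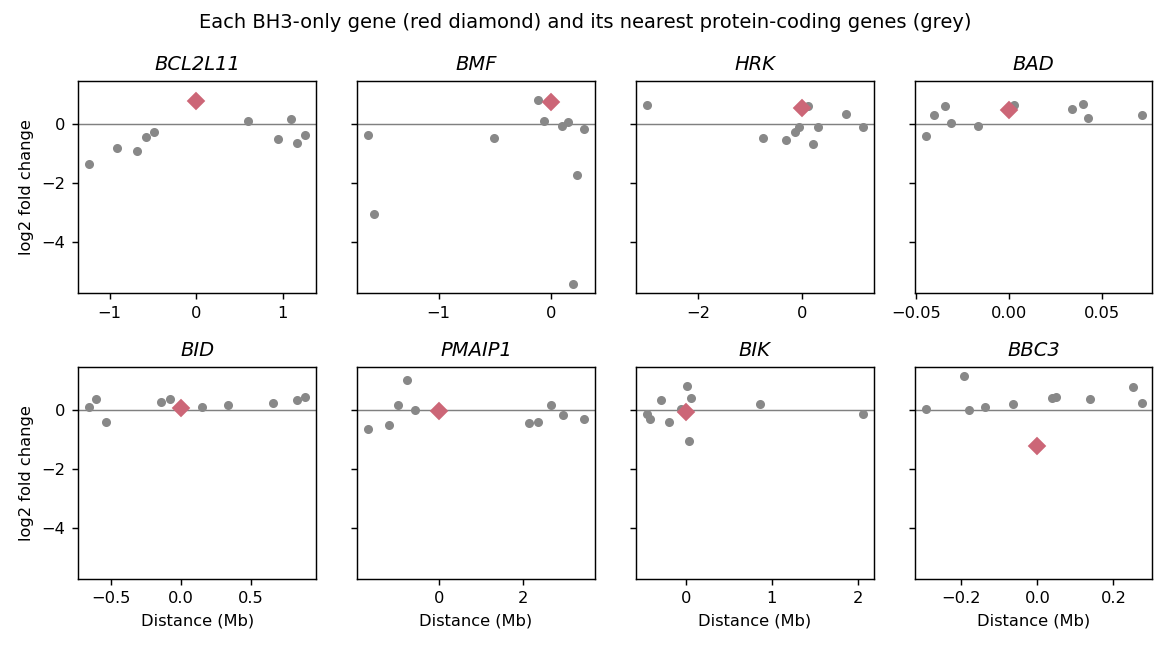
Log2 fold change of each BH3-only gene (red diamond, at 0 Mb) and of the 10 nearest protein-coding genes with at least 100 reads (grey points), against the distance between gene midpoints in Mb. The BCL2L11 diamond (0.80) lies above all its neighbours and the BBC3 diamond (-1.21) below all of its own.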

How the data were processed

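RNA of Ramos and Ramos640 cells was sequenced on the Ion Proton. Per the published methods and the labels, adaptors were trimmed and reads placed on GRCh37 with MapSplice, and the authors deposited whole-number counts of reads per gene without normalization. The counting program, its annotation, its use of strand and the fate of multiply mapped reads are not given in the sources used here.

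Each library was scaled by its median-of-ratios size factor (1.14 for Ramos, 0.876 for Ramos640), as in DEseq, and 1 was added before the log2 fold change was taken. Genes with at least 10 reads, called tested, were set against the fold criteria of the study, without its limit on FDR. With 1 library per line no degrees of freedom are left for edgeR's quasi-likelihood test, so none was run. Fold intervals are Clopper-Pearson intervals of the Ramos640 share of the reads, level intervals are exact Poisson, and ratios of gene pairs have exact conditional intervals. Alternatives were TMM factors (edgeR 4.0.16), total counts, and pseudocounts of 0.1 and 10. Others were minimums of 1 and 100 reads, other transcript lengths, and removal of the GC trend. That trend was a running median over 501 genes, with fewer at both ends of the GC scale. Positions, lengths and GC content came from GENCODE v44lift37, and 31749 rows matched by current or older symbol. The steps were tested on simulated data. The 8 genes and all lists were chosen with earlier results of these data known. Named genes are the 8, the guardians and effectors, the 2 largest rises and falls of each other list with at least 100 reads, and the nearest neighbour on each side. CD3E, MS4A1, GPR137, MIR4435-2HG, MIR3191, EIF2AK4, NR3C1, JUN, FAS, AEN, CDKN1A, CCNG1, SFN, YWHAZ, YWHAE, YWHAB, AKT1, PIM2, PIM3, BMF-AS1, MAPK8 and BNIP3 were named after their values were seen. A gene of the list of protein regulators is not reported here and was left out of its counts.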

Additional observations from a re-analysis of the deposited data

How the results depend on the processing

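BCL2L11 and BMF passed the criterion for higher, and BBC3 that for lower, under each of the 7 alternatives to the scaling, pseudocount, GC correction and read minimum, and HRK and BAD passed it under none. TMM factors and total counts moved the median of all genes tested by -0.0097 and -0.080. Total counts took BIK from -0.082 to -0.16, past its counting interval, and BID from 0.061 to -0.019, inside it. With the GC trend removed, PMAIP1 came to 0.30 and BIK to -0.23, and 5 of the 8 genes had an interval above 0 in place of 4. Of the genes named from the lists, NR3C1 (-0.35), CCNG1 (-0.36), MAPK8 (-0.28) and BNIP3 (-0.580) then fell short of the criterion for lower. AEN (0.48) and CDKN1A (0.42) fell short of that for higher, and BCL2L1 came to 0.31 and BAX to 0.12. The cause was not tested. Dividing by the length of the reference transcript in place of merged exons multiplied RPKM values by 1 to 2.03 and put BID above PMAIP1 in both libraries. No other place in the order of point values changed, though BBC3 and HRK came nearer each other in Ramos640. No paired analysis was possible because each line has 1 library, and for the same reason no library could be left out. Depth limits BBC3 and HRK most, with 126 and 207 reads in all.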
